A study of Mus musculus with 4 samples.

Results

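The genes described here are Ostn, which encodes the secreted peptide osteocrin, and 9 other genes for factors that skeletal muscle can release or that carry a cytokine name in muscle research: Mstn, Fndc5, Il6, Il15, Il12a, Metrnl, Apln, Fstl1 and Gdf11. They were picked by gene symbol, 10 of the 51826 rows in the count table, and all 10 symbols were found. The choice was made with the comparison of the genotypes known, because Ostn and Il12a were among the genes called in it, so the differences of the 10 genes between genotypes are described without a test. The study deleted the α2 exon of Mef2d, a muscle-specific exon of a MEF2 transcription factor gene, with CRISPR-Cas9 and asked what its loss does to gene expression in muscle. PolyA RNA from the quadriceps of 4 sedentary C57BL6/J male mice of about 20 weeks was sequenced, 2 wild-type (WT) and 2 homozygous for the deletion (Mef2dα2 Eko, or Eko), with 1 library per mouse. The mice were littermates on standard chow, the labels give no other allele or treatment, and the deletion is carried in all tissues rather than in muscle alone. The founder line of the sequenced mice was not given in the sources used here.

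Muscle fibres release peptides and proteins, often called myokines, that act on the muscle itself or on other organs. Osteocrin is made in muscle and in bone; it resembles natriuretic peptides, binds the clearance receptor NPR-C, encoded by Npr3, and can thereby leave more natriuretic peptide free to act. Myostatin and GDF11 are closely related members of the TGF-β family that signal through activin receptors, and myostatin is the classic brake on muscle growth. Irisin is cut from the membrane protein FNDC5, and interleukin 6 is released by contracting muscle and by immune cells.

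Since Mstn and Gdf11 are the related pair and differed in opposite directions, their coding sequences were compared first. The coding sequences of 1128 bases for Mstn and 1215 bases for Gdf11 (GENCODE M21 transcripts on GRCm38) were identical at 730 of 1117 aligned bases, or 65.4%, and at 74.7% of the last 300 coding bases. The longest stretch that they shared without a difference was 12 bases. It lies in the windows of 42 bases printed here 5′ to 3′, coding bases 448 to 489 of Mstn and 511 to 552 of Gdf11 counted from the start codon, with the 12 positions that differ in capitals. The windows lie in exon 2 of 3 of each gene, at chr1:53063954-53063995 on the plus strand for Mstn and chr10:128886433-128886474 on the minus strand for Gdf11.
Mstn: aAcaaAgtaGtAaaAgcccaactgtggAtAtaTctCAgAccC
Gdf11: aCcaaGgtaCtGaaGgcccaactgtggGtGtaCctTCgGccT
The coding sequences of the other 8 genes shared stretches of 9 to 11 bases with that of Mstn. Untranslated exon sequence and pairs of genes without Mstn were not compared.

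The promoters are shown for Il12a, the called gene with a window, and for Mstn, the most abundant gene. RefSeq windows on GRCm38.p6, from 250 bases before to 50 bases after the annotated start, were at hand for 8 of the 10 genes, without Ostn and Il15, and Il12a had 2 of them, so there were 9 windows. Both strands were searched for the MEF2 consensus, the E-box CANNTG, the FOXO motif GTAAACA, the CRE core TGACG, the AP-1 motif TGANTCA and the TATA box TATAAA. In the sequences below every match is in capitals, and the sequence is 5′ to 3′ on the plus strand.
Il12a, first start, chr3:68690394-68690693: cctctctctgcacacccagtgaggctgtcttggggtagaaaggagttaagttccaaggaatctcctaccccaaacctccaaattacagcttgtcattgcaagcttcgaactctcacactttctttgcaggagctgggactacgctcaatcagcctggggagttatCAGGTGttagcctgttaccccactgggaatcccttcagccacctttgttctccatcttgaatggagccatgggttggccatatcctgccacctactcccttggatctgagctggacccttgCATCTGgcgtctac
Il12a, second start, chr3:68691174-68691473: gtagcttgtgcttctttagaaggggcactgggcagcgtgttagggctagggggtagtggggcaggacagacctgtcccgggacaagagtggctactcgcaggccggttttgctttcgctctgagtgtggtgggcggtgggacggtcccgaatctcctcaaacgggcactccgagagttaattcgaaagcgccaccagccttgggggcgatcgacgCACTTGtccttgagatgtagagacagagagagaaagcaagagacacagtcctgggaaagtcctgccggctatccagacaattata
Mstn, chr1:53061390-53061689: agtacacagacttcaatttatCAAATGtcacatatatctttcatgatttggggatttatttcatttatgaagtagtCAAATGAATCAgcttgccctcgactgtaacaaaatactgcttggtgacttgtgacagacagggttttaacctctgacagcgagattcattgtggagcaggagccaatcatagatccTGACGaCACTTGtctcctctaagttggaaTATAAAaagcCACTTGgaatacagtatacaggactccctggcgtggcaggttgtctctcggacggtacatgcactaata
The Mstn window held 4 E-boxes, a CRE core, an AP-1 motif that overlaps an E-box, and a TATA box whose first base is at position -29 from the start. The Il12a windows held only E-boxes, 2 in the first and 1 in the second. The MEF2 consensus was in the windows of 0 of the 8 genes and in 3.19% of the 32851 windows of all genes, and the FOXO motif was in 0 of the 8 and in 3.65% of all windows. E-boxes were in 6 of the 8 genes and in 72.3% of all windows. The CRE core was in Mstn, Il6 and Gdf11 (20.8% of all windows), AP-1 in Mstn and Il6 (7.81%), and the TATA box in Mstn and Gdf11 (13.6%). GC content ranged from 41.3% in the Mstn window to 82.3% in that of Fndc5. A match is only a match of letters, and a window without one says nothing about a factor further away.

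Total expected counts, the estimated reads per gene summed over a library, were between 72626757 and 85176059, and the totals of the genotypes overlapped. Levels are given in CPM, counts per 1e6 counts of a library after TMM scaling of the totals, and 3 counts, taken as the floor, came to between 0.0348 and 0.0419 CPM. Floors cover counting error only, since the reads carry no molecular identifiers. The expected counts do not separate exons of Mef2d, so they can neither show the deletion nor check the genotype labels. The gene as a whole had 19687 and 18393 counts in WT and 21695 and 17206 in Eko mice. Its log2 fold change was 0.02 with a standard error, SE, of 0.08 (adjusted p = 0.960, the edgeR quasi-likelihood test, adjusted after Benjamini-Hochberg). The study reports that its own view of the RNA-seq reads showed the deletion of the α2 exon. All 10 markers of skeletal muscle fibre were detected, summing to between 127080 and 132110 CPM in the 4 libraries. The tissue is therefore muscle in each library, but the RNA is of a whole muscle, in which fewer cells of a type and less RNA per cell cannot be told apart.

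Both Eko mice had more Ostn RNA than either WT mouse, by 2.11-fold in the fit. Ostn (ENSMUSG00000052276.8, chr16:27307489-27351212 on the plus strand of GRCm38, 5 exons and 1423 bp of exon) had 442 and 359 counts in WT against 936 and 773 in Eko mice. These counts came to 5.82 and 4.44 CPM in WT and 10.9 and 10.8 CPM in Eko, so the groups did not overlap. The WT mice differed from each other by 1.31-fold and the Eko mice by 1.004-fold. The WT mean was 5.13 ± 0.980 CPM (SD, n = 2 mice) and the Eko mean 10.8 ± 0.0343 CPM (SD, n = 2 mice). The log2 fold change was 1.08 with a standard error of 0.14, and it lay between 0.91 and 1.29 when each mouse was left out in turn. The value that had made Ostn a called gene was an adjusted p of 0.0466 in the edgeR quasi-likelihood test, adjusted after Benjamini-Hochberg, close to the threshold of 0.05. When genes had to reach 1 CPM in 2 libraries, the adjusted p of Ostn was 0.0613 and it was no longer called. The gene overlaps, on the opposite strand, the pseudogene Gm15970, which had 0 counts in all 4 libraries. It also overlaps the antisense gene Gm32312, which shares exonic sequence with it and has no counts under that name in the deposited data. A strand setting for the counting was not given in the sources used here, so reads of Gm32312, if any, cannot be told apart from those of Ostn.

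Il12a RNA differed by nearly the same size, at 2.12-fold. Il12a encodes the alpha subunit that pairs with the Il12b product in interleukin 12 and with the Ebi3 product in interleukin 35. The gene (ENSMUSG00000027776.12, chr3:68690644-68698547 on the plus strand) had 213 and 289 counts in WT against 583 and 483 in Eko mice. In CPM this was 2.81 and 3.57 in WT and 6.76 and 6.75 in Eko, again without overlap and with the Eko mice almost equal. The log2 fold change was 1.08 (SE 0.15), between 0.92 and 1.28 with each mouse left out, and the adjusted p that had made it a called gene was 0.0481 (the edgeR quasi-likelihood test, adjusted after Benjamini-Hochberg). With the filter of 1 CPM in 2 libraries its adjusted p was 0.0613 as well.

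The partner subunits of Il12a, other subunits of the interleukin 12 family and the receptor chains of interleukin 12 were at or near the floor. Il12b, the beta subunit, had no count in either WT mouse and 1 and 0 in the Eko mice. Ebi3, the partner in interleukin 35, had between 3 and 6 counts in the 4 libraries. Of the other subunits, Il27 had between 0 and 4 counts, and Il23a 2 counts in 1 WT mouse and 0 in the others. The receptor chains Il12rb1 (1 to 4 counts) and Il12rb2 (0 to 2 counts) were as low. Only Il27ra, of the 10 genes in the list of the interleukin 12 family, its receptors and their targets, reached enough counts for the test, with 14 and 17 counts in WT and 14 and 16 in Eko (log2 fold change -0.04, SE 0.48). The shared chain Il6st, which also serves interleukin 35, was abundant and is described with Il6. The markers of macrophages, cells that can make interleukin 12, summed to 46.3 and 37.7 CPM in WT and 33.5 and 24.7 CPM in Eko, so they were lower where Il12a was higher. For 6 of the 8 macrophage markers both Eko mice lay below both WT mice, beside 23% of all genes tested. Markers of T or natural killer cells summed to 2.20 and 2.56 CPM in WT and 2.71 and 2.31 CPM in Eko, which overlapped, and 3 of the 7 were at 3 counts or fewer in every library. Most of each sum was the marker Cd3e, with 1.90 and 2.39 CPM in WT and 2.41 and 2.07 CPM in Eko, while Cd3d had 0 to 3 counts. The part of these cells in the Il12a difference was not tested.

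**Figure D1:**
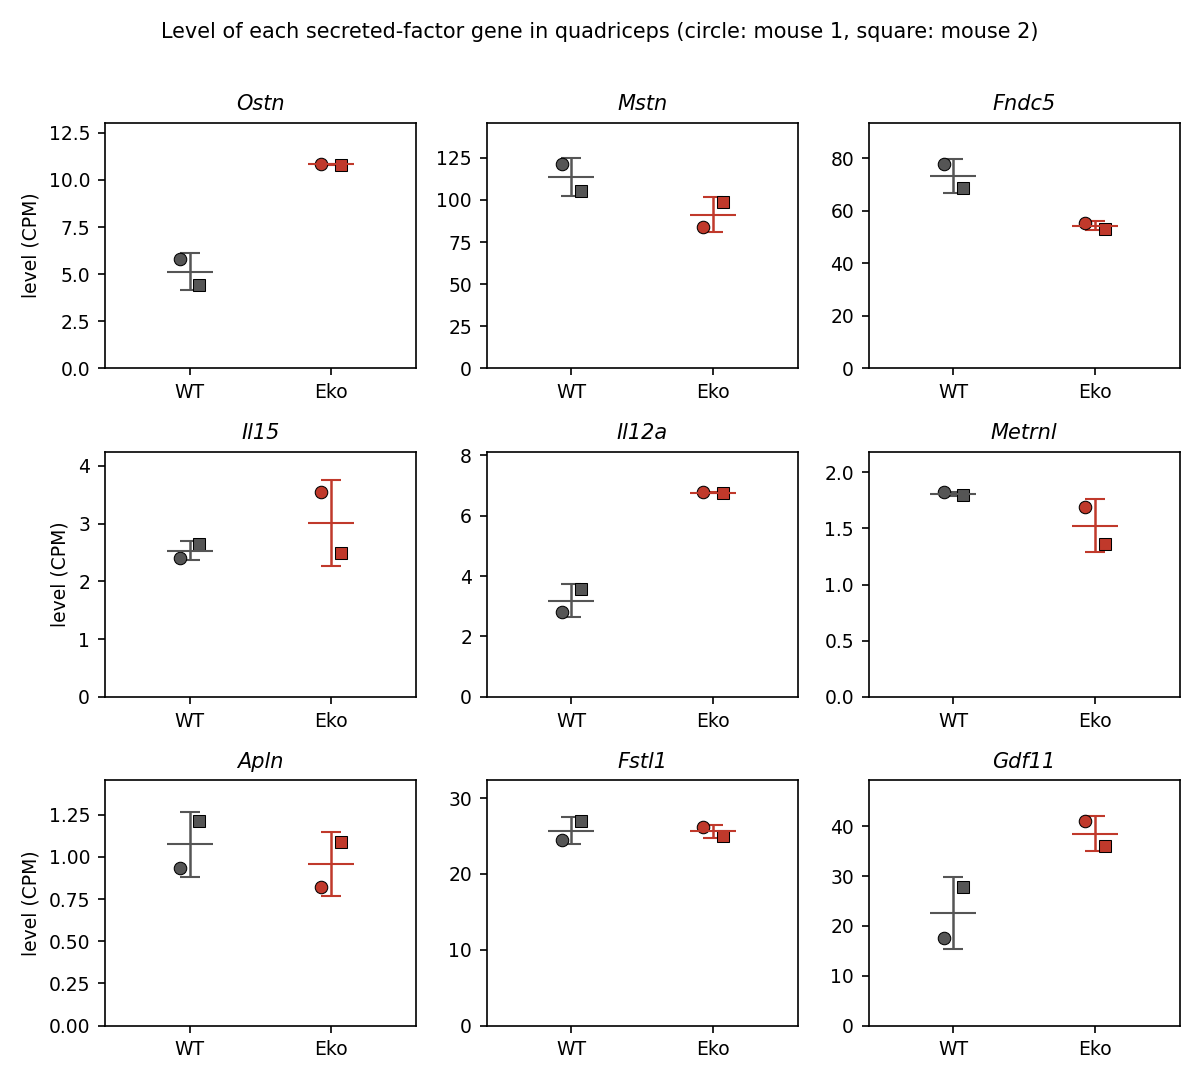
Level in CPM (vertical axis, from 0) of 9 genes for secreted factors in each quadriceps library, by genotype (horizontal axis). Circles are mouse 1 and squares mouse 2 of a genotype, the horizontal bar is the mean and the whiskers are the SD (n = 2 mice); both Eko mice lie above both WT mice for Ostn, Il12a and Gdf11 and below them for Mstn, Fndc5 and Metrnl. Il6, with 0 to 5 counts, is not drawn.

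Mstn and Gdf11, the related TGF-β family genes, differed in opposite directions. Mstn, for myostatin (chr1:53061640-53068079, plus strand), had 9219 and 8535 counts in WT and 7239 and 7058 in Eko mice. Its level was 121 and 106 CPM in WT and 84.0 and 98.7 CPM in Eko. The Eko mice were both lower, but the gap between the groups was small beside the difference of the mice within each. The log2 fold change of Mstn was -0.31 (SE 0.10), and it lay between -0.43 without Eko replicate 2 and -0.19 without Eko replicate 1.

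Gdf11, for growth differentiation factor 11 (chr10:128882295-128891718, minus strand), had 1331 and 2241 counts in WT and 3534 and 2572 in Eko mice. Its level was 17.5 and 27.7 CPM in WT and 41.0 and 36.0 CPM in Eko. Both Eko mice were higher, and the WT mice alone differed by 1.58-fold, the widest spread within WT among the 9 genes tested. Gdf11 had a log2 fold change of 0.77 (SE 0.20), which moved from 0.47 without WT replicate 1 to 1.15 without WT replicate 2.

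Per length of exon, Mstn exceeded Gdf11 by 10.4-fold and 5.72-fold in the WT mice and by 3.08-fold and 4.12-fold in the Eko mice. Mstn thus stayed the more abundant of the pair in each of the 4 mice, with a lower ratio in the Eko mice, without overlap.

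Among 20 tested genes of the receptors, SMAD proteins, inhibitors and proteases of this pathway, 0 were called by the edgeR quasi-likelihood test, adjusted after Benjamini-Hochberg. At an unadjusted p under 0.05, reached by 11.6% of all genes tested, there were 5, with Acvr1b, Acvr2a and the inhibitor Wfikkn2 higher and Acvr1c and Smad3 lower, and DESeq2 called 1, Acvr1b. Acvr1b, a type I activin receptor, had 68.1 and 65.1 CPM in WT and 83.3 and 82.1 CPM in Eko, a log2 fold change of 0.31 (SE 0.07, adjusted p = 0.161 in edgeR). Acvr2a, a type II receptor, had 54.5 and 53.2 CPM in WT and 62.9 and 68.7 CPM in Eko, a log2 fold change of 0.29 (SE 0.07, adjusted p = 0.226 in edgeR). Acvr2b, the type II receptor that myostatin prefers, had a log2 fold change of 0.24 (SE 0.12), and Fst, for the inhibitor follistatin, one of 0.17 (SE 0.19). The Eko mice lay above the WT mice for 8 genes of this list and below for 2, beside 20.8% and 23% of all genes tested, and the median log2 fold change was 0.08. No gene of the pathway list passed edgeR's test.

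Fndc5, the precursor of irisin, was the second most abundant of the 10 genes and was lower in Eko mice. Fndc5 (chr4:129136999-129144593, plus strand) had 5911 and 5543 counts in WT and 4780 and 3803 in Eko mice, which came to 77.9 and 68.5 CPM and to 55.4 and 53.2 CPM. The groups did not overlap, and the level in Eko mice was 74.2% of that in WT mice. The log2 fold change was -0.43 (SE 0.08) and kept between -0.51 and -0.33 with each mouse left out. Itgav and Itgb5 encode the integrin chains described as an irisin receptor. Itgav had 37.3 and 34.2 CPM in WT and 45.1 and 44.0 CPM in Eko, a log2 fold change of 0.32 (SE 0.07, adjusted p = 0.197 in edgeR), and was called by DESeq2. Itgb5 had a log2 fold change of -0.10 (SE 0.08), and its groups overlapped.

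The interleukins Il6 and Il15 gave no difference between the genotypes that exceeded the spread of the mice. Il6 (chr5:30013114-30019981, plus strand) had 2 counts per WT mouse, and 5 and 0 in the Eko mice, too few for the test, and a difference was not detectable at this depth. Its receptor genes were expressed, Il6ra at 3.91 and 3.55 CPM in WT and 3.06 and 3.16 CPM in Eko, and the shared chain Il6st at 182 and 163 CPM in WT and 150 and 169 CPM in Eko. Their log2 fold changes were -0.26 (SE 0.14) and -0.12 (SE 0.09), and neither passed the test. Of the 14 tested genes in the interleukin 6 list, 0 were called by edgeR, 0 had an unadjusted p under 0.05 and 0 were called by DESeq2. The 2 with the smallest adjusted p were Lifr, the receptor of leukaemia inhibitory factor, and Stat3, with log2 fold changes of -0.26 (SE 0.13) and 0.17 (SE 0.09). That of Lifr was -0.44 without WT replicate 1 and -0.03 without WT replicate 2.

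Il15 (chr8:82331632-82403222, minus strand), a cytokine for T and natural killer cells that muscle also makes, had 183 and 214 counts in WT and 305 and 178 in Eko mice. Its level was 2.41 and 2.65 CPM in WT and 3.54 and 2.49 CPM in Eko, so 1 Eko mouse lay above both WT mice and the other between them. The log2 fold change of 0.26 (SE 0.20) became -0.01 without Eko replicate 1 and 0.48 without Eko replicate 2. The receptor chain that presents interleukin 15, Il15ra, also had its highest level in Eko replicate 1, with 10.2 and 9.84 CPM in WT and 11.4 and 8.19 CPM in Eko (log2 fold change -0.02, SE 0.16). Of 6 tested genes of its list, 0 were called by edgeR or DESeq2 and 1, the transcription factor gene Stat5b, had an unadjusted p under 0.05 (log2 fold change 0.17, SE 0.07). Il2rg, the chain shared by several interleukin receptors, had a log2 fold change of -0.78 (SE 0.34) from 30 to 87 counts.

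Metrnl, Apln and Fstl1 differed little. Metrnl, for meteorin-like (chr11:121701544-121716306, plus strand), had 1.82 and 1.79 CPM in WT and 1.69 and 1.36 CPM in Eko, from 97 to 146 counts. The groups of Metrnl did not overlap, although the log2 fold change was only -0.24 with a standard error of 0.21. Apln, for the peptide apelin (chrX:48025146-48034853, minus strand), had 0.936 and 1.21 CPM in WT and 0.824 and 1.09 CPM in Eko, from 71 to 98 counts. The groups of Apln overlapped, and its log2 fold change was -0.17 (SE 0.28). Fstl1, for follistatin-like 1 (chr16:37776873-37836514, plus strand), had the difference closest to 0, with 24.5 and 26.9 CPM in WT and 26.2 and 25.0 CPM in Eko and a log2 fold change of -0.01 (SE 0.08).

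The genes for receptors of these 3 factors were measured too. Aplnr, the apelin receptor, had a log2 fold change of 0.13 (SE 0.14). For meteorin-like, the described receptor gene Kit had 0.24 (SE 0.32), and the related ligand gene Metrn had -0.09 (SE 0.09). For the follistatin-like 1 receptor gene Dip2a it was 0.26 (SE 0.17), and for its relative Dip2c 0.22 (SE 0.07). With the irisin receptor genes, 11 genes of this list were tested and 0 were called by edgeR. DESeq2 called 1, Itgav, and 3 had an unadjusted p under 0.05, Itgav and Dip2c higher and Esrra lower.

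**Figure D2:**
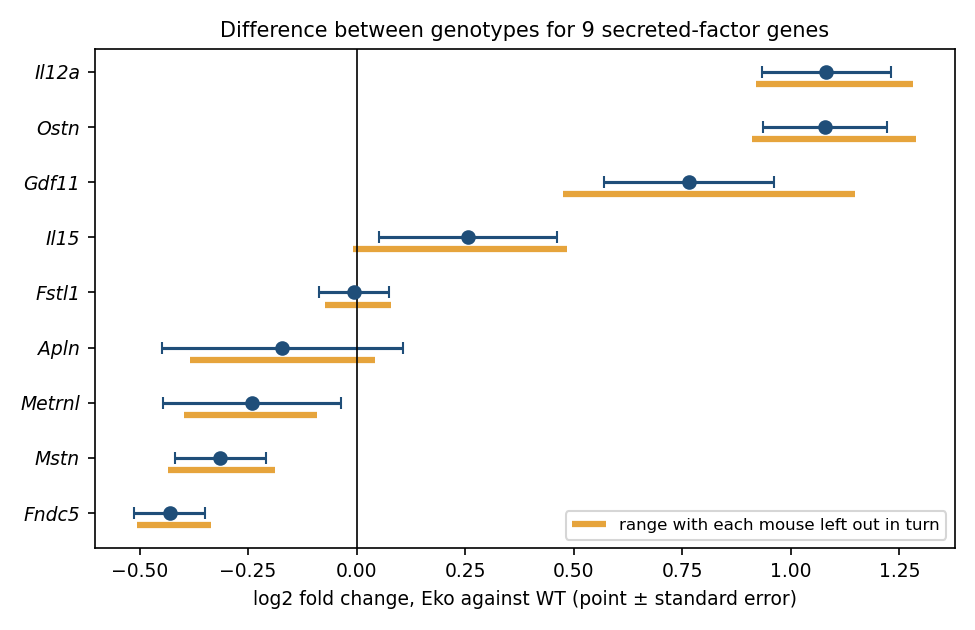
Log2 fold change of Eko against WT (horizontal axis) for the 9 genes with enough counts; points with bars are the estimate ± standard error, and the thick lines are the range over 4 fits that each leave out 1 mouse. Il12a and Ostn lie near 1.08 and Gdf11 at 0.77 with the longest range, and Mstn and Fndc5 lie below 0, while the ranges of Il15, Fstl1 and Apln include 0.

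The 9 tested genes are read against all genes as follows. By the edgeR quasi-likelihood test, adjusted after Benjamini-Hochberg 2 of the 9, Ostn and Il12a, were called, both higher in Eko, where 0.416% of the 16120 genes tested were called, 0.105% as higher and 0.31% as lower. DESeq2 also called Fndc5, as lower, where it called 2.02% of all genes. Because the genes were chosen with this comparison in view, nothing is read from those counts. The groups did not overlap for 6 of the 9, with 3 above and 3 below, beside 43.8% of all genes tested, 20.8% above and 23% below. The median log2 fold change of the 9 was -0.01, equal to the -0.01 of all genes tested, and the 9 genes did not share a direction.

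Levels can be compared between genes only per length, here as CPM per kb of exon. In WT mice the order was Mstn (42.0 ± 4.17), Fndc5 (26.5 ± 2.39), Gdf11 (5.57 ± 1.77), Fstl1 (5.23 ± 0.354), Ostn (3.61 ± 0.688), Il12a (1.88 ± 0.319), Metrnl (1.14 ± 0.0114), Il15 (1.12 ± 0.0734), Apln (0.341 ± 0.0620) and Il6 (0.0105), with SD and n = 2 mice. Within WT the mice overlapped for Gdf11 and Fstl1 and for Metrnl and Il15, so these neighbours could not be ordered. In Eko mice Ostn, at 7.61 ± 0.0241 CPM per kb (SD, n = 2 mice), stood above Fstl1, at 5.21 ± 0.182, and behind Gdf11, at 9.47 ± 0.875. Il12a, at 3.97 ± 0.00369 CPM per kb (SD, n = 2 mice), followed Fstl1. Mstn (33.8 ± 3.85) and Fndc5 (19.7 ± 0.581) kept the first places, and Il15 (1.33 ± 0.328), Metrnl (0.961 ± 0.150), Apln (0.304 ± 0.0600) and Il6 (0.0119) the last, and no neighbours overlapped, though the last level rests on the 5 and 0 counts of Il6. All 10 genes together took 255 and 242 CPM in WT and 230 and 235 CPM in Eko mice, most of it Mstn and Fndc5.

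**Figure D3:**
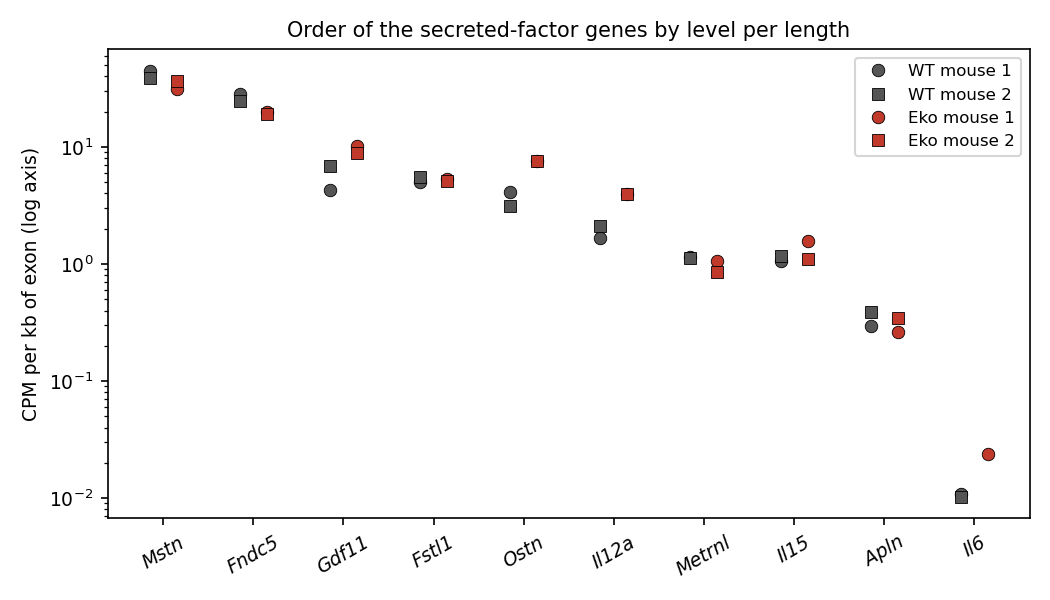
Level per length (CPM per kb of exon, log axis) of the 10 genes, ordered by their mean in WT mice; each marker is 1 mouse. The order runs from Mstn, at 39.0 to 44.9 in WT, to Il6, which is near 0.01, and Ostn stands below Fstl1 in WT and above it in Eko mice; the Eko mouse with 0 Il6 counts has no marker.

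No gene for a receptor or enzyme of osteocrin and the natriuretic peptides passed the test. Npr3, the clearance receptor, had 7.33 and 5.40 CPM in WT and 6.83 and 3.94 CPM in Eko, which overlapped, with a log2 fold change of -0.23 (SE 0.26). Npr1, the receptor of atrial and brain natriuretic peptides, had 6.73 and 6.28 CPM in WT and 6.63 and 7.96 CPM in Eko, a log2 fold change of 0.16 (SE 0.13). Npr2, the receptor of the C-type peptide, was the most abundant of the receptors, with 38.6 and 36.2 CPM in WT and 35.2 and 35.4 CPM in Eko, a log2 fold change of -0.08 (SE 0.07). Of the 11 tested genes of this list 0 were called by edgeR or DESeq2, and 1, Furin, a protease that cuts prohormones, had an unadjusted p under 0.05, with a log2 fold change of -0.21 (SE 0.08, adjusted p = 0.422 in edgeR). Corin, the protease of the atrial peptide, had a log2 fold change of -0.56 (SE 0.42) and overlapping groups. The median over the list was -0.08.

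Insulin and FoxO genes, known to act on Ostn in muscle, were tested as a further list. Of these 10 genes 0 were called by edgeR or DESeq2, and 2 had an unadjusted p under 0.05. Akt1, a kinase of the insulin pathway, had 45.3 and 38.93 CPM in WT and 29.3 and 34.4 CPM in Eko, a log2 fold change of -0.40 (SE 0.11, adjusted p = 0.251 in edgeR). Igf1r, the receptor of insulin-like growth factor 1, had 20.2 and 18.4 CPM in WT and 23.5 and 22.8 CPM in Eko, a log2 fold change of 0.26 (SE 0.08, adjusted p = 0.301 in edgeR). The median over the list was -0.10.

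Among 19 tested genes for other factors that muscle can secrete, 0 were called by edgeR, and 2, Igf1 and Nampt, by DESeq2, both lower. Igf1, for insulin-like growth factor 1, had 28.4 and 38.2 CPM in WT and 15.8 and 20.8 CPM in Eko, a log2 fold change of -0.86 (SE 0.17, adjusted p = 0.139 in edgeR). Nampt, an enzyme of NAD synthesis that is also found outside cells, had 188 and 181 CPM in WT and 149 and 153 CPM in Eko, a log2 fold change of -0.29 (SE 0.06, adjusted p = 0.180 in edgeR). Besides these, Igfbp5 (0.33, higher) and Adipoq (-1.08, lower), a product of adipocytes, had an unadjusted p under 0.05. Markers of adipocytes, a list that shares Adipoq and Lep with this one, summed to 171 and 102 CPM in WT and 96.9 and 73.2 CPM in Eko. Both Eko mice lay below both WT mice for only 2 of the 8, Cfd and Retn, beside 23% of all genes tested. The log2 fold change of Lep was 0.21 (SE 0.71). The macrophage sum, given with Il12a, was lower in Eko as well, and the part of either cell type in these differences was not tested.

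Over all 8 lists of partners and related factors, 111 of the 112 genes listed were in the table, 92 were tested, and 0 were called by the edgeR quasi-likelihood test, adjusted after Benjamini-Hochberg. At an unadjusted p under 0.05 there were 8 higher and 8 lower, 17.4% of the 92 beside 11.6% of all genes tested. DESeq2 called 4 of them, or 4.35% beside 2.02%, with 2 higher (Acvr1b and Itgav) and 2 lower (Igf1 and Nampt). The groups did not overlap for 40.2% of the 92, beside 43.8% of all genes. Their median log2 fold change was -0.03.

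**Figure D4:**
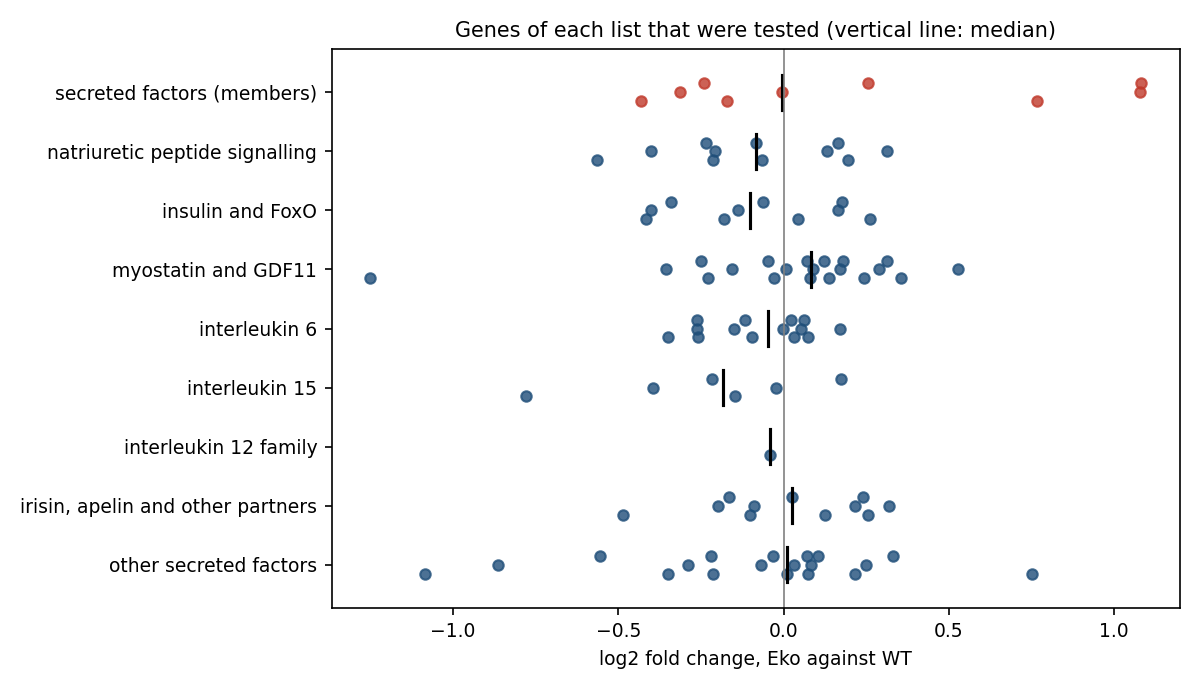
Log2 fold change of Eko against WT (horizontal axis) for each tested gene of the secreted factors and of the 8 lists of partners and related genes, 1 row per list and 1 point per gene, with the median as a vertical line. Medians lie between -0.18 for interleukin 15 and 0.08 for myostatin and GDF11, and the interleukin 12 row holds a single gene.

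Markers of the remaining cell types stood as follows beside these genes. Endothelial markers summed to between 151 and 173 CPM, with overlap of the genotypes. Fibroblast markers summed to 569 and 582 CPM in WT and 568 and 492 CPM in Eko, so the sums did not overlap, although WT replicate 1 and Eko replicate 1 were almost equal. For 5 of the 8 fibroblast markers both Eko mice lay below both WT mice, beside 23% of all genes tested. DESeq2, which called 2.02% of all genes, called 1 of the 8, the collagen gene Col3a1, as lower (log2 fold change -0.40, adjusted p = 0.0321 in DESeq2 and 0.226 in edgeR). Satellite cell markers summed to between 19.5 and 22.7 CPM and overlapped too. Nerve and Schwann cell markers summed to 40.3 and 42.7 CPM in WT and 44.5 and 53.7 CPM in Eko, and for 3 of the 6 both Eko mice lay above both WT mice, beside 20.8% of all genes tested. Within the muscle fibre list, both Eko mice lay below both WT mice for 4 of the 10 markers and above for 3, beside 23% and 20.8% of all genes tested. Lower were Myh1 and Myh2, the myosin heavy chains of IIx and IIa fibres, Mb, for myoglobin, and Acta1 (log2 fold change -0.14). Higher were Mylpf (0.12), Actn3 (0.17) and Myh4. Myh2 had 1576 and 1709 CPM in WT and 1264 and 1041 CPM in Eko (log2 fold change -0.51, SE 0.11), and Mb had 1430 and 1303 CPM in WT and 1050.1 and 884 CPM in Eko (log2 fold change -0.50, SE 0.10). Myh1 had a log2 fold change of -0.44 (SE 0.12), while Myh4, the myosin of IIb fibres and the largest part of the sum, had 0.07 (SE 0.09). DESeq2, which called 2.02% of all genes, called Myh1, Myh2 and Mb, with adjusted p from 0.000342 to 0.0132. The edgeR test did not call them, with adjusted p from 0.157 to 0.261. The part of any of these cell or fibre types in the differences of Ostn, Il12a, Gdf11, Mstn and Fndc5 was not tested.

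Over the 4 libraries, the genes whose pattern was nearest to that of Ostn were Cldn2, BC028528 and Fbxo47, by Euclidean distance of log2 CPM from each gene's mean over the libraries among 16052 genes. Their distances were 0.141, 0.150 and 0.166, and their counts were low, between 6 and 41 per library. Il12a came at rank 119 with a distance of 0.524. Its order of the WT mice was the reverse of that of Ostn, which had more in WT replicate 1, while Il12a had more in WT replicate 2. With 4 libraries this likeness is a description only.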

How the data were processed

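PolyA RNA of quadriceps from 2 WT and 2 Mef2dα2 Eko mice was sequenced from a stranded library kit, and genotypes and replicate numbers were taken from the labels. The authors aligned the reads to mm10 and estimated counts per gene with RSEM and an Ensembl annotation of GRCm38, and the expected counts were deposited without normalization. STAR 2.6.1a is named in the submitters' processing notes. All deposited values were whole numbers, so rounding them changed 0 values. The strand setting of the counting is not given in the sources used here.

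Counts were analysed in R 4.3.3 with edgeR 4.0.16: TMM scaling, the filterByExpr filter (16120 of 24621 genes with any count kept), the quasi-likelihood test on genotype alone, and Benjamini-Hochberg adjustment with a threshold of 0.05. A prior count of 0.125 was added for log2 fold changes. With 2 mice against 2, an exact two-sided permutation test cannot go below p = 0.333, so no such test was run and the calls rest on a spread shared among genes. The test was also tested on simulated data. Exon lengths, positions and coding sequences came from GENCODE M21, and promoters from RefSeq.

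The 10 genes, the partner lists and the marker lists were chosen with earlier results of these data known. The differences of the 10 genes are given as a description. Their adjusted p-values and calls are those that chose them, or the same under an alternative, and are no independent test. Named from the lists were the main receptors or partners of each factor and, in each list, the 2 genes with the smallest adjusted p; Wfikkn2, Acvr1c, Smad3, Esrra, Igfbp5 and Adipoq were named after their values were seen, to fill counts of 5 or fewer. The comparison of the Mstn and Gdf11 coding sequences was added after the data were seen, in place of a planned comparison of proteins, which was not run. Alternatives were RLE and upper-quartile scaling, no filter, a filter of 1 CPM in 2 libraries, DESeq2 1.42.0, edgeR's likelihood ratio test, limma-voom (limma 3.58.1), a replicate block, leaving out each mouse, and the length of the longest transcript in place of all exons.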

Additional observations from a re-analysis of the deposited data

How the results depend on the processing

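Genes called over the whole table numbered 67 (17 higher, 50 lower) and became 799 (303, 496) with no filter on low counts, 23 (5, 18) with 1 CPM in 2 libraries, 325 (138, 187) with DESeq2 and 312 (114, 198) with the likelihood ratio test. Leaving out a mouse gave between 99 and 299 calls, 25 to 127 higher and 74 to 172 lower, with the lone mouse of a genotype assumed to vary like the other 2, and the count rose above 1.5 times the full one without WT replicate 2 (299), Mef2dα2 Eko replicate 1 (204) or Mef2dα2 Eko replicate 2 (126). Of the 10 genes, 2 were called (Ostn and Il12a), 5 with no filter (also Mstn, Fndc5 and Gdf11), 0 with 1 CPM in 2 libraries, 4 with the likelihood ratio test (also Fndc5 and Gdf11), 3 with DESeq2 (also Fndc5) and 2 to 4 without a mouse, 4 without WT replicate 2. Over the 12 alternatives Ostn, Il12a, Mstn, Fndc5, Metrnl and Gdf11 kept their direction in all 12, Il15 in 11, Apln in 10 and Fstl1 in 8. The lists, with 0 calls each, gave 3 for insulin and FoxO, 3 for myostatin and GDF11, 1 for the irisin and apelin list and 4 for other secreted factors with no filter; DESeq2 gave 1, 1 and 2 in the last 3 of these. Without a mouse, insulin and FoxO had 0 to 1 calls (Irs1 without WT replicate 1) and other secreted factors 0 to 3: Igf1 without WT replicate 1 or Mef2dα2 Eko replicate 2, and Adipoq, Igf1 and Lep without Mef2dα2 Eko replicate 1, while the likelihood ratio test gave 1 (Igf1). The cause of these shifts was not tested.

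The mice share replicate numbers across genotypes and were littermates, but the labels do not say which WT and Eko mice, if any, form a pair. The deviations of same-numbered mice correlated at 0.162 over genes. With 2 mice per genotype the crossed value, -0.162, is fixed by the first, so the correlation cannot decide whether the mice are paired. A fit with the replicate block called 186 genes (50 higher, 136 lower), of the 10 genes Ostn, Fndc5 and Il12a, and 2 other secreted factors (Adipoq and Igf1).

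Over the fits that left out a mouse, the log2 fold change took both signs for 42 of the 92 list genes tested. Among the 28 chosen by the naming rule these were Npr3 (between -0.68 and 0.10, and 0.0020 without WT replicate 1), Il15ra (-0.27 to 0.19), Il27ra (-0.28 to 0.19, and 0.07 without WT replicate 2) and Kit (-0.034 to 0.59). Per length of the longest transcript the levels in WT were 1.33 CPM per kb for Il15, 2.45 for Il12a, 1.29 for Metrnl and 6.79 for Fstl1, which then stood above Gdf11 in mean.

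Depth limits Il6 and the Il12a partner subunits, which stayed at or near the floor. With 2 mice per genotype, differences such as those of Apln and Metrnl are within about 1 standard error.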
